A study of Homo sapiens with 12 samples.

Results

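The epidermal differentiation complex is a cluster of genes on human chromosome 1 whose products build the outer, cornified layer of stratified epithelia. The genes examined here were the protein-coding rows of chromosome 1 whose symbol begins with SPRR, LCE or S100A, together with IVL, LOR, FLG, FLG2, HRNR, RPTN, TCHH, TCHHL1 and CRNN. There were 55 such genes among the 58735 in the table, lying between positions 151982915 and 153632039 of GRCh38, a span of 1.65 Mb. They were 17 S100A genes, 18 LCE genes, 11 SPRR genes, 7 S100-fused genes (FLG, FLG2, HRNR, RPTN, TCHH, TCHHL1 and CRNN), and IVL and LOR. Of these, 33 reached 10 raw counts on average across 12 libraries and were tested, and the other 22 were not.

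RNA was sequenced from HaCaT, a spontaneously immortalized keratinocyte line from human skin, and from TIGK, a telomerase-immortalized line of human gingival keratinocytes. Cells of both lines were left untreated or received 5 mM H2O2 for 3 h, giving 4 groups with 3 libraries apiece, and the study asked how skin and oral keratinocytes differ in their handling of oxidative stress. All cultures were grown in one keratinocyte medium. Each tissue was represented by 1 line, so tissue and line cannot be told apart, and the labels do not say whether the 3 libraries of a group came from separate cultures. The p-values therefore measure the spread between these libraries, which may be technical.

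As background, a terminally differentiating keratinocyte replaces its membrane with a cornified envelope. Involucrin (IVL) is an early scaffold of that envelope, loricrin (LOR) is its main late component in skin, and the small proline-rich proteins (SPRR) and late cornified envelope proteins (LCE) are cross-linked into it by transglutaminases. The S100-fused proteins carry an S100-type calcium-binding domain joined to a long repeat, and filaggrin (FLG), the best known of them, bundles keratin filaments and is later broken down into moisture-retaining compounds. The S100A proteins are small calcium-binding proteins, among them S100A8 and S100A9, which together form the antimicrobial complex calprotectin. Oral gingiva and skin differ in how far this programme runs, and cultured lines express only a part of it.

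Libraries held between 30426401 and 49034244 counts. Within each group the libraries differed by more than sampling of reads would give (chi-square per degree of freedom 4.45 to 28.2), so no library was counted as a copy of another. The highest of these values belonged to replicate 3 of HaCaT with H2O2, against replicate 1 (28.2) and replicate 2 (18.9) of its group, and replicate 3 of untreated TIGK also stood apart (15.3 and 11.9). A set of 6 keratinocyte markers summed to between 1021000 and 1339000 normalized counts in each library. Melanocyte markers (5 genes) summed to 27.8 to 93.8 and endothelial markers (4 genes) to 5.80 to 59.7. The 6 fibroblast markers summed to 310.7 to 417.8 in HaCaT and 799.8 to 937.6 in TIGK, with COL1A2 at 0 in all 12 libraries. Of the 6, 3 were tested and all 3 were called lower in HaCaT, where 30.8% (untreated) and 29.8% (treated) of all tested genes were. Their log2 fold changes ran from -5.28 to -0.751 between untreated lines and from -8.09 to -0.869 between treated lines. The 5 leukocyte markers summed to 1.17 to 14.5 in HaCaT and 88.9 to 124.4 in TIGK, in TIGK almost all of it CD14. A normalized count here is the raw count divided by the library's TMM-scaled size and multiplied by the mean library size.

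Upstream sequence is shown for the genes on which the comparisons below turn. RefSeq windows on GRCh38.p14 from 250 bases before to 50 bases after the transcription start were at hand for 51 of the 55 genes, 59 windows in all. The 150 bases directly before the start are printed 5′ to 3′ for FLG, which fell in both lines, IVL and LCE3D, whose responses differed between lines, SPRR1B, the most abundant per length in untreated HaCaT, and S100A9, which was far lower in HaCaT. They lie for FLG (minus strand) at chr1:152325240-152325389, LCE3D (minus strand) at chr1:152580517-152580666, IVL (plus strand) at chr1:152908396-152908545, SPRR1B (plus strand) at chr1:153031053-153031202 and S100A9 (plus strand) at chr1:153357704-153357853. Capitals mark the letters TGANTCA, the AP-1 type motif, and TATAAA, the TATA box, on either strand.
FLG: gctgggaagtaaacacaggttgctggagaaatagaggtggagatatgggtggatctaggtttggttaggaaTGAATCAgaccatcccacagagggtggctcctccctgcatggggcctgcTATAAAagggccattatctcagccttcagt
IVL: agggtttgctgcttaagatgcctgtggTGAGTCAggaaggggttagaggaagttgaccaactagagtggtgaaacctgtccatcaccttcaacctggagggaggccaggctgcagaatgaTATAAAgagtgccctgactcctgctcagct
LCE3D: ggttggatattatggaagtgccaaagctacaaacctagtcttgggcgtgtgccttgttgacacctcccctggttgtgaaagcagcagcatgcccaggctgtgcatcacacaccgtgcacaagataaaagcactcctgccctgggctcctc
SPRR1B: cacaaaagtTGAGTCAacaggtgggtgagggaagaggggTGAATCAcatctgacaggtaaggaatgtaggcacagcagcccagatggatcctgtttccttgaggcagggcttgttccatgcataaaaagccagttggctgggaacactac
S100A9: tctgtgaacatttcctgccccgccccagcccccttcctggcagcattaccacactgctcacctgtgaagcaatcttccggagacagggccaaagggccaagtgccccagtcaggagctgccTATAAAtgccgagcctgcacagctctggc

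FLG and IVL each held 1 AP-1 type motif and a TATA box in this stretch, SPRR1B held 2 AP-1 type motifs and no TATAAA, S100A9 held a TATA box alone, and LCE3D held neither. Over the full 300-base windows, TGANTCA was found in 18 of the 59 windows of the cluster (30.5%) and in 7.71% of all 35116 RefSeq windows. It occurred in 6 of the 7 S100-fused genes, in both IVL and LOR, in 6 of 9 SPRR genes with a window, in 4 of 16 S100A genes and in 0 of 17 LCE genes. TATAAA was found in 50.8% of the cluster's windows and 11.5% of all windows, the core of the antioxidant response element TGACNNNGC in 15.3% and 13.3%, and CACCC in 78% and 59.9%, all searched on both strands. These are matches of letters and not evidence that a factor binds.

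In both lines the cluster's output was dominated by S100A genes. The 55 genes together took 0.609% ± 0.0144 (SD, n = 3) of all counts in untreated HaCaT, 0.685% ± 0.0728 in HaCaT with H2O2, 0.473% ± 0.0344 in untreated TIGK and 0.546% ± 0.0182 in TIGK with H2O2. The S100A genes accounted for 0.456% ± 0.0129, 0.562% ± 0.0779, 0.402% ± 0.0354 and 0.47% ± 0.0163 of all counts in the same order. The SPRR genes followed at 0.0958%, 0.107%, 0.0581% and 0.0665%. The 18 LCE genes together stayed at or under 0.00174% of counts in each group.

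Per length of the gene model (RPKM after TMM scaling), SPRR1B stood highest in untreated HaCaT at 1207 ± 97.7 (SD, n = 3), next to S100A11 at 1161 ± 13.8, a difference within the spread of the SPRR1B libraries. S100A2, a p53-family target of basal keratinocytes, followed at 999.6 ± 45.1 RPKM and SPRR1A at 734.6 ± 53.4 RPKM. In untreated TIGK the order was S100A11 at 1013 ± 55.1, SPRR1B at 687.1 ± 27.4, S100A14 at 557.8 ± 47.0 and S100A6 at 475.1 ± 76.3 RPKM, the levels of the last pair lying within their summed spreads. The same 4 genes led each line after H2O2, with S100A11 first in both, at 1483 ± 79.1 RPKM in HaCaT and 1255 ± 34.2 RPKM in TIGK. The gene model of SPRR1A is only 270 bases long in the table, which raises its level per length. At the low end, LOR reached at most 0.731 RPKM in any group mean.

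**Figure D1:**
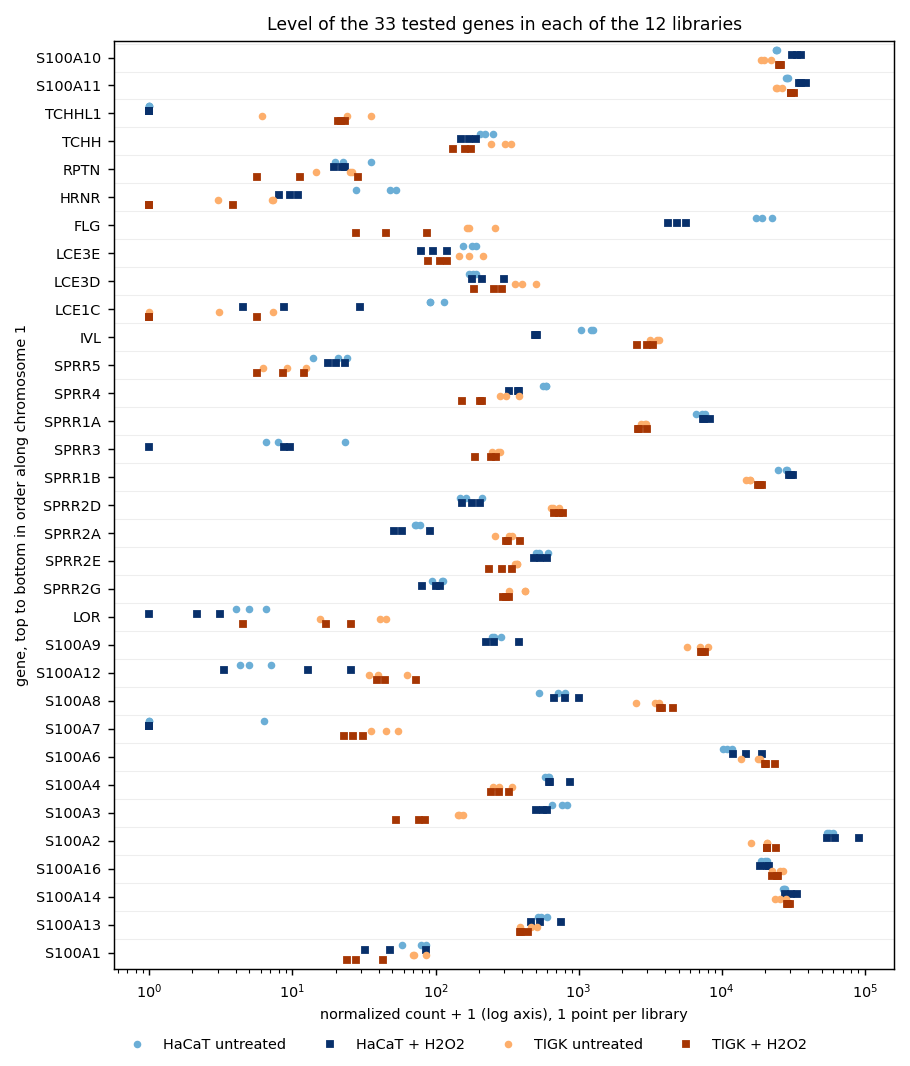
Normalized count plus 1 of the 33 tested genes (log horizontal axis), with 1 point per library and colours and shapes for the 4 groups; genes run from top to bottom along chromosome 1. S100A10, S100A11, S100A14 and S100A16 lie at 18488 or more in all 12 libraries, while FLG separates the lines, with no HaCaT library under 4209 and no TIGK library over 258.

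The untreated lines were compared first, as the state from which each responded. Of the 33 tested genes, 12 were higher and 14 lower in HaCaT than in TIGK (edgeR adjusted p under 0.01), or 36.4% and 42.4%, where 29.1% of all 16618 tested genes were higher and 30.8% lower. In either direction this was 78.8% of the cluster and 59.9% of all tested genes. The libraries of the lines did not overlap for 14 genes on the higher and 14 on the lower side, against 36.2% and 37.1% of all tested genes. The median log2 fold change was -0.01, and the median absolute log2 fold change was 1.33 for the cluster and 0.565 for all tested genes. For 8 of the 33 (TCHHL1, HRNR, LCE1C, SPRR5, SPRR3, LOR, S100A12 and S100A7) at least 1 group had a mean raw count under 10, so they were tested through the groups in which they were high. Without them 10 genes were higher and 9 lower among 25. In bulk RNA, fewer cells expressing a gene and less RNA per cell cannot be told apart.

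Among genes with counts in both lines, FLG set them furthest apart. The untreated HaCaT libraries held 19247, 17270 and 22573 normalized counts of FLG, and the untreated TIGK libraries 165, 171 and 258. Every HaCaT library was far above every TIGK library, and the log2 fold change was 6.64 ± 0.19 (SE), a 99.5-fold difference (edgeR adjusted p = 5.27e-16). A further pair of genes also read higher in HaCaT. They fall outside the naming rule because of their low counts and were picked out after their values were seen. Both were tested through untreated HaCaT, the group in which they were high, so their p-values are no separate support. HRNR, which encodes the filaggrin relative hornerin, was at 26.7, 51.9 and 47.4 in HaCaT and at 2.03, 6.22 and 6.27 in TIGK, a log2 fold change of 3.08 ± 0.58 (edgeR adjusted p = 0.000116). LCE1C was at 90.2, 113.8 and 90.8 in HaCaT and at 0, 2.07 and 6.27 in TIGK, a log2 fold change of 5.09 ± 0.76 (edgeR adjusted p = 7.88e-06). Neither gene had overlapping libraries. The other tested LCE genes, LCE3D and LCE3E, did not go this way. LCE3D was lower in HaCaT, at 180.7 ± 10.1 against 420.4 ± 73.7 without overlap (log2 fold change -1.22 ± 0.19, edgeR adjusted p = 1.17e-05). LCE3E did not differ by the test, at 175.1 in HaCaT and 176.0 in TIGK (edgeR adjusted p = 0.961). TCHH, which encodes the hair and tongue protein trichohyalin, was at 225.6 ± 24.7 in HaCaT and 296.5 ± 46.9 in TIGK, with overlapping libraries (edgeR adjusted p = 0.0334). TCHHL1 had 0 counts in all 6 HaCaT libraries and 5.09, 34.2 and 23.0 normalized counts in the untreated TIGK libraries, at least 7.27-fold lower in HaCaT when a floor of 3 counts per library is taken.

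IVL, the early scaffold of the envelope, was lower in HaCaT than in TIGK. IVL was at 1226, 1253 and 1031 normalized counts in untreated HaCaT and at 3633, 3176 and 3546 in untreated TIGK, without overlap, a log2 fold change of -1.56 ± 0.09 (edgeR adjusted p = 1.03e-11). LOR was near the limit of counting in HaCaT, at 3.06, 5.53 and 3.95, and at 43.7, 14.5 and 39.7 in TIGK (edgeR adjusted p = 0.000607). LOR was tested through the TIGK groups, in which it was higher, so its p-value is no separate support. In neither line did LOR approach the level of IVL, which per length was 14.97 against 0.0935 RPKM in untreated HaCaT and 44.15 against 0.731 RPKM in untreated TIGK.

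The SPRR genes were split between the lines. SPRR1A and SPRR1B, the forms induced early in squamous differentiation, were higher in HaCaT. SPRR1A libraries read 7295, 7674 and 6639 in HaCaT against 2918, 2744 and 2940 in TIGK, a log2 fold change of 1.33 ± 0.07 (edgeR adjusted p = 3.3e-12), and SPRR1B was 1.76-fold higher (edgeR adjusted p = 4.81e-10). SPRR1A and SPRR1B are close copies that can share reads, so the split between them is uncertain. Summed, they were at 34373 ± 2714 normalized counts in untreated HaCaT and 18335 ± 723.7 in untreated TIGK. SPRR4 was at 589.9, 593.5 and 566.8 normalized counts in untreated HaCaT and at 382.4, 281 and 309.5 in TIGK, also without overlap, with a log2 fold change of 0.85 ± 0.13 (edgeR adjusted p = 1.35e-05).

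On the TIGK side stood SPRR3, a major proline-rich protein of oral and oesophageal epithelium, and 3 SPRR2 genes. SPRR3 was at 22.2, 5.53 and 6.91 normalized counts in HaCaT and 247.1, 270.6 and 282.3 in TIGK, a log2 fold change of -4.41 ± 0.37 (edgeR adjusted p = 2.7e-09). SPRR2A was at 71.1, 77.4 and 72.1 in HaCaT and 341.7, 258.2 and 327.2 in TIGK, none overlapping, for a log2 fold change of -2.07 ± 0.19 (edgeR adjusted p = 1.02e-08). SPRR2D and SPRR2G lay close to it, with log2 fold changes of -1.97 ± 0.13 and -1.88 ± 0.15 (edgeR adjusted p = 1.34e-10 and 1.92e-09). SPRR2E alone of the tested SPRR2 genes was higher in HaCaT, at 500.5, 605.7 and 526.3 against 359, 368.1 and 369 (edgeR adjusted p = 0.000537). The SPRR2 genes are near-identical copies that can share reads, so the split among them is uncertain. Summed over SPRR2A to SPRR2G, untreated HaCaT held 899.8 ± 63.95 and untreated TIGK 1742 ± 48.3 normalized counts. SPRR5 stayed at or under 23.2 in every library and was not called.

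Among 14 tested S100A genes, 5 were higher and 6 lower in HaCaT, where 29.1% and 30.8% of all tested genes were. The calprotectin pair was lower in HaCaT. S100A9 was at 284.3, 256.4 and 246.9 normalized counts in HaCaT and at 7999, 7036 and 5684 in TIGK, a log2 fold change of -4.71 ± 0.15 (edgeR adjusted p = 1.04e-15). S100A8 was at 797, 715.1 and 531.3 in HaCaT and at 3628, 3425 and 2508 in TIGK, a smaller gap of -2.22 ± 0.16 on the log2 scale (edgeR adjusted p = 2.2e-10). S100A7 (psoriasin) and S100A12, both epithelial or myeloid defence proteins, were also lower in HaCaT (edgeR adjusted p = 3.13e-05 and 6.72e-05) but reached at most 62.2 normalized counts in any untreated library. Both were tested through TIGK, with mean raw counts of only 2.33 and 5.0 in untreated HaCaT. The leukocyte markers, which moved the same way, had CD14 at 0 to 13.3 in HaCaT and 85.7 to 123.4 in TIGK, with PTPRC, CD3E, CD68 and LYZ each at or under 5.56 in all libraries, and their part in the result was not tested. S100A6 and S100A16 completed the 6 lower genes, with log2 fold changes of -0.62 ± 0.13 and -0.32 ± 0.07 (edgeR adjusted p = 0.000309 and 0.000467).

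Higher in HaCaT were S100A2, S100A3 and S100A4. S100A2 was at 59780, 54916 and 55929 normalized counts in HaCaT and at 20879, 20823 and 16102 in TIGK, a log2 fold change of 1.56 ± 0.14 (edgeR adjusted p = 5.59e-09). S100A3 was at 655.7, 823.4 and 764.3 against 144.4, 142.1 and 153.7, with a log2 fold change of 2.35 ± 0.14 (edgeR adjusted p = 2.26e-11). S100A4 was at 623.6, 613.4 and 581.6 against 340.7, 274.8 and 250.9, with a log2 fold change of 1.07 ± 0.14 (edgeR adjusted p = 2.03e-06). S100A3 and S100A4 overlap on the same strand, so reads in the shared stretch cannot be assigned to either with certainty. The annexin-binding S100A10 and S100A11 were higher by 0.25 and 0.20 on the log2 scale (edgeR adjusted p = 0.00141 and 0.00324). Without replicate 3 of untreated TIGK neither was called (edgeR adjusted p = 0.0115 and 0.0144), and S100A11 was also not called without replicate 2 of untreated HaCaT or of untreated TIGK. S100A14, S100A13 and S100A1 did not pass the test, at 0.08, 0.29 and -0.01.

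**Figure D2:**
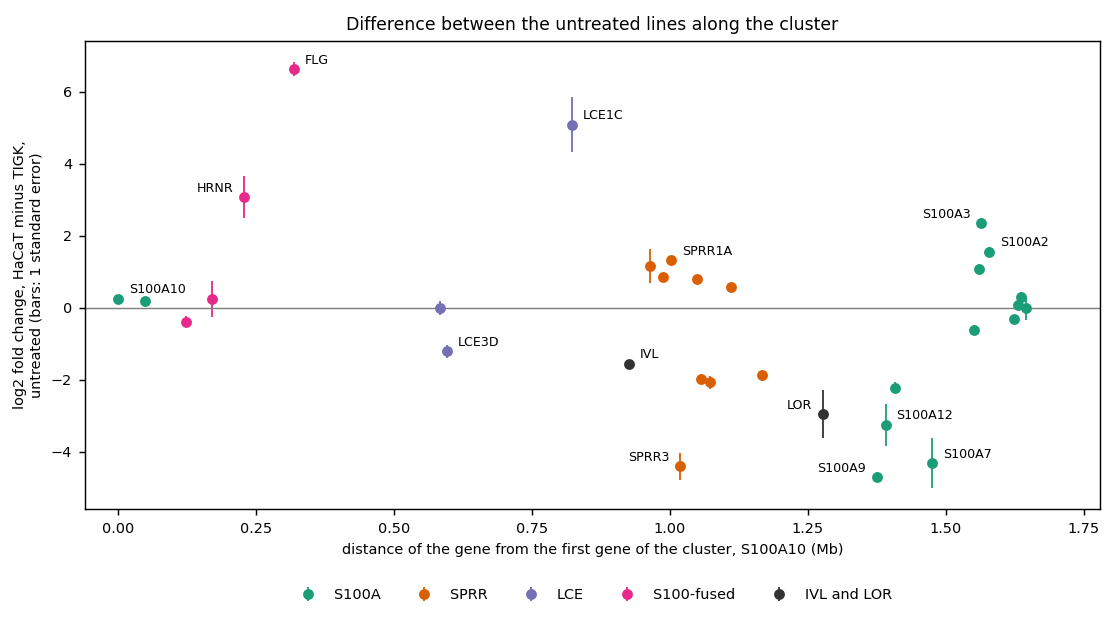
Log2 fold change between untreated HaCaT and untreated TIGK (vertical axis, bars 1 standard error) against distance from the first gene of the cluster in Mb (horizontal axis), coloured by family; TCHHL1, with 0 counts in HaCaT, is left out. Genes above and below zero lie intermixed along the cluster, from FLG at 6.64 to S100A9 at -4.71, with SPRR genes on both sides within the same stretch.

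After H2O2 the same division remained for nearly all genes of the cluster that were called in the untreated lines. Of 33 tested, 13 were higher and 13 lower in treated HaCaT than in treated TIGK, against 30.2% and 29.8% of all tested genes, or 78.8% of the cluster and 60% of all tested genes in either direction. Among the 25 genes with a mean raw count of 10 or more in every group, 11 were higher and 8 lower. Libraries did not overlap for 13 genes on each side, against 35.8% and 35.6% of all tested genes. All 12 genes called higher in untreated HaCaT were called higher again, and lower again were 13 of the 14 lower ones. The share of all tested genes called in both states was not counted, so this is not shown to be particular to the cluster. The FLG libraries held 5606, 4861 and 4209 normalized counts in treated HaCaT and 26.7, 43.8 and 86.3 in treated TIGK, a log2 fold change of 6.46 ± 0.22 (edgeR adjusted p = 4.52e-15). For IVL the difference was -2.56 ± 0.10 (edgeR adjusted p = 2.07e-14), for SPRR3 -5.35 ± 0.43 (edgeR adjusted p = 1.8e-09) and for S100A9 -4.66 ± 0.15 (edgeR adjusted p = 1.34e-15). S100A3 was 2.98 ± 0.15 higher in HaCaT on the same scale (edgeR adjusted p = 2.27e-12), S100A2 1.67 ± 0.14 (edgeR adjusted p = 2.24e-09) and SPRR1A 1.49 ± 0.07 (edgeR adjusted p = 6.63e-13). The libraries of the lines did not overlap for any of these 7 genes. S100A7 was at 0 in all 3 treated HaCaT libraries and at 22.0, 25.7 and 30.1 in treated TIGK, at least 7.75-fold lower. LCE3D no longer differed by the test, at 230.8 ± 63.6 and 244.1 ± 53.1 (log2 fold change -0.09, edgeR adjusted p = 0.704), while S100A13 was called higher in HaCaT at 0.51 ± 0.15 (edgeR adjusted p = 0.00493). That call was lost in 9 of 23 alternatives, among them without replicate 3 of treated HaCaT (0.28, edgeR adjusted p = 0.056), whose 752.7 normalized counts of S100A13 stood above the 460.7 and 532.9 of its group, without each library of treated TIGK in turn and without replicate 2 of untreated TIGK. HRNR, LCE1C, S100A11, S100A12, S100A16, S100A6 and LOR also lost their call between treated lines when some single libraries were left out.

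H2O2 changed 9 genes of the cluster in HaCaT, with envelope genes among those that fell and S100A genes among those that rose. Of 33 tested genes, 3 rose and 6 fell, or 9.09% and 18.2%, beside the 18.9% and 15.2% of all tested genes that rose and fell (edgeR adjusted p under 0.01). In either direction this was 27.3% of the cluster and 34.1% of all tested genes. Of the 25 genes with a mean raw count of 10 or more in every group, 3 rose and 4 fell, the other fallers being HRNR and LCE1C, which were tested through untreated HaCaT. Libraries did not overlap for 5 genes on the higher and 9 on the lower side, against 29.7% and 24.1% of all tested genes. The median absolute log2 fold change was 0.352 in the cluster and 0.328 over all tested genes. Those that fell were FLG, HRNR, IVL, LCE1C, LCE3E and SPRR4, and those that rose were S100A6, S100A10 and S100A11.

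FLG fell from 19247, 17270 and 22573 normalized counts to 5606, 4861 and 4209 in HaCaT. The treated libraries were all below the untreated ones, and the log2 fold change was -2.01 ± 0.15, or 24.8% of the untreated level (edgeR adjusted p = 6.36e-09). The FLG gene model is 12747 bases long, and the 3055 tested genes with models over 8 kb had a median log2 fold change of -0.161 in HaCaT, against 0.0358 for models of up to 1 kb; the part of length in the change of FLG was not tested. FLG overlaps the antisense gene FLG-AS1, which averaged only 16.9 raw counts.

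IVL fell from 1226, 1253 and 1031 to 493, 514 and 506 normalized counts in HaCaT, with a tight and non-overlapping treated group. Its log2 fold change was -1.21 ± 0.10, leaving 43.1% of the untreated level (edgeR adjusted p = 1.74e-08). SPRR4 fell from 589.9, 593.5 and 566.8 to 375, 325.3 and 384.4, a log2 fold change of -0.69 ± 0.13 (edgeR adjusted p = 0.000348). LCE3E, one of the injury-responsive LCE3 genes, fell from 154.4, 191.2 and 179.7 to 77.9, 95.6 and 118.5, also without overlap (log2 fold change -0.84 ± 0.20, edgeR adjusted p = 0.00215). LCE3E was not called without replicate 2 of untreated HaCaT (edgeR adjusted p = 0.0108).

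LCE1C and HRNR, which are outside the naming rule because they averaged under 100 normalized counts, fell in HaCaT as well. Both were tested through untreated HaCaT, so their falls are no separate support. LCE1C went from 90.2, 113.8 and 90.8 to 7.79, 3.50 and 28.8, with replicate 3 the highest of the treated libraries (edgeR adjusted p = 0.000975), and was not called by DESeq2 over all libraries (adjusted p = 0.0339). HRNR went from 26.7, 51.9 and 47.4 to 10.0, 7.00 and 8.54 (edgeR adjusted p = 0.00224), a call lost without replicate 2 of untreated or of treated HaCaT (edgeR adjusted p = 0.0109 and 0.0119). Their treated libraries all lay below the untreated ones. The LCE1 genes summed to 144.7 ± 6.88 normalized counts in untreated and 34.7 ± 21.2 in treated HaCaT, and to 4.86 ± 4.34 and 2.32 ± 4.02 in TIGK. These sums include LCE1C, which averaged 98.3 in untreated and 13.4 in treated HaCaT.

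The genes that rose in HaCaT were S100A genes of high level. S100A10, the partner of annexin A2, went from 24216, 23852 and 24128 to 30891, 33644 and 36113, a log2 fold change of 0.48 ± 0.06 (edgeR adjusted p = 6.79e-06). S100A11 went from 28330, 29013 and 28664 to 34985, 36102 and 38783, a log2 fold change of 0.35 ± 0.05 (edgeR adjusted p = 3.83e-05). S100A6 (calcyclin) went from 11775, 10852 and 10159 to 12017, 14731 and 19194, a log2 fold change of 0.49 ± 0.13 (edgeR adjusted p = 0.00455). The treated groups of all 3 lay above the untreated ones, but the lowest treated S100A6 library was only just above the highest untreated one, and the S100A6 call was lost in 13 of 23 alternatives. Among these were both DESeq2 fits and leaving out replicate 2 or 3 of untreated HaCaT, replicate 2 or 3 of treated HaCaT, replicate 2 of untreated TIGK, or replicate 2 or 3 of treated TIGK (adjusted p up to 0.0679 over all 13, in DESeq2 on the HaCaT groups alone).

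Replicate 3 of treated HaCaT was also the highest of its group for S100A2, at 91182 against 54828 and 61637, for S100A4, at 868.1 against 627.6 and 625, for S100A8, at 1010 against 676.5 and 809.2, and for S100A9, at 385.4 against 225.9 and 256.5. None of the 4 passed the test in HaCaT, where they changed by 0.28, 0.22, 0.29 and 0.14 on the log2 scale. SPRR1B (0.17 ± 0.06) and SPRR1A (0.10 ± 0.07) did not pass either (edgeR adjusted p = 0.0225 and 0.24). Without this library S100A10 and S100A11 kept their calls.

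In TIGK, 3 of the 33 genes rose and 7 fell, or 9.09% and 21.2%, beside 10.2% and 12.9% of all tested genes. In either direction this was 30.3% of the cluster and 23.2% of all tested genes. All 10 were among the 25 genes with a mean raw count of 10 or more in every group. Libraries did not overlap for 6 genes on the higher and 9 on the lower side, against 25.7% and 25.4% of all tested genes. The median absolute log2 fold change was 0.316 in the cluster and 0.259 over all tested genes. S100A10 and S100A11 rose and FLG, LCE3E and SPRR4 fell in both lines, while SPRR1B rose and S100A1, S100A3, TCHH and LCE3D fell by the test in TIGK.

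FLG fell in TIGK from its low level of 164.8, 171.1 and 258.2 normalized counts to 26.7, 43.8 and 86.3. The groups did not overlap, and the log2 fold change of -1.83 ± 0.27 left 26.4% of the untreated level (edgeR adjusted p = 3.89e-05), close to the 24.8% left in HaCaT. TCHH fell from 245.1, 337 and 307.4 to 132.3, 159.9 and 175, a log2 fold change of -0.92 ± 0.16 (edgeR adjusted p = 0.000193). Its change in HaCaT was -0.42 ± 0.16 (edgeR adjusted p = 0.0421). In TIGK the median over the 3055 genes with models over 8 kb was -0.11.

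SPRR4 fell in TIGK from 382.4, 281 and 309.5 to 152, 202.7 and 209.8, a log2 fold change of -0.78 ± 0.14 (edgeR adjusted p = 0.000287). LCE3D fell from 502.4, 399.2 and 359.6 to 185.7, 289.3 and 257.4, a log2 fold change of -0.78 ± 0.18 (edgeR adjusted p = 0.00287). LCE3E fell from 213.6, 145.2 and 169.4 to 88.2, 119.9 and 106.9, a log2 fold change of -0.74 ± 0.20 (edgeR adjusted p = 0.00686). In all 3 the treated libraries lay below the untreated ones, but the calls of LCE3D and LCE3E were lost without replicate 1 of untreated TIGK, the highest of its group in both, and without replicate 1 or 3 of treated TIGK. The LCE3E call was also lost without replicate 3 of untreated TIGK and without replicate 2 of treated TIGK.

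S100A3 fell in TIGK from 144.4, 142.1 and 153.7 to 75.4, 52.3 and 83.1, a log2 fold change of -1.05 ± 0.16 (edgeR adjusted p = 6.59e-05). In HaCaT, where it was higher, it went from 655.7, 823.4 and 764.3 to 567.5, 604 and 500.8 without overlap and without passing the test (log2 fold change -0.42 ± 0.13, edgeR adjusted p = 0.0109), though 12 of 23 alternatives called it lower. S100A1, named outside the rule, fell from 74.1 ± 9.19 to 30.5 ± 9.97 in TIGK (edgeR adjusted p = 0.00659), and this call was lost in 6 of 23 alternatives, namely without each library of untreated TIGK in turn, without replicate 2 or 3 of treated TIGK and with the replicate block. S100A1 overlaps S100A13 on the opposite strand, and whether strand was used in counting is not given in the sources used here.

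The genes that rose in TIGK changed by 1.20- to 1.27-fold. S100A10 went from 21998, 19842 and 18771 to 25537, 25192 and 26028 (log2 fold change 0.34 ± 0.06, edgeR adjusted p = 0.000317). S100A11 went from 26560, 24000 and 24485 to 30482, 30503 and 31954 (log2 fold change 0.31 ± 0.05, edgeR adjusted p = 0.000201). SPRR1B went from 15840, 14756 and 15808 to 17838, 19303 and 18439 (log2 fold change 0.26 ± 0.06, edgeR adjusted p = 0.00229). All treated libraries lay above all untreated ones for these genes, and the SPRR1B call was lost without replicate 2 of untreated TIGK (edgeR adjusted p = 0.0102). S100A6, S100A8 and S100A14 also lay above without overlap, at 0.36, 0.35 and 0.18 on the log2 scale, but did not pass the test (edgeR adjusted p = 0.0369, 0.0669 and 0.0445).

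**Figure D3:**
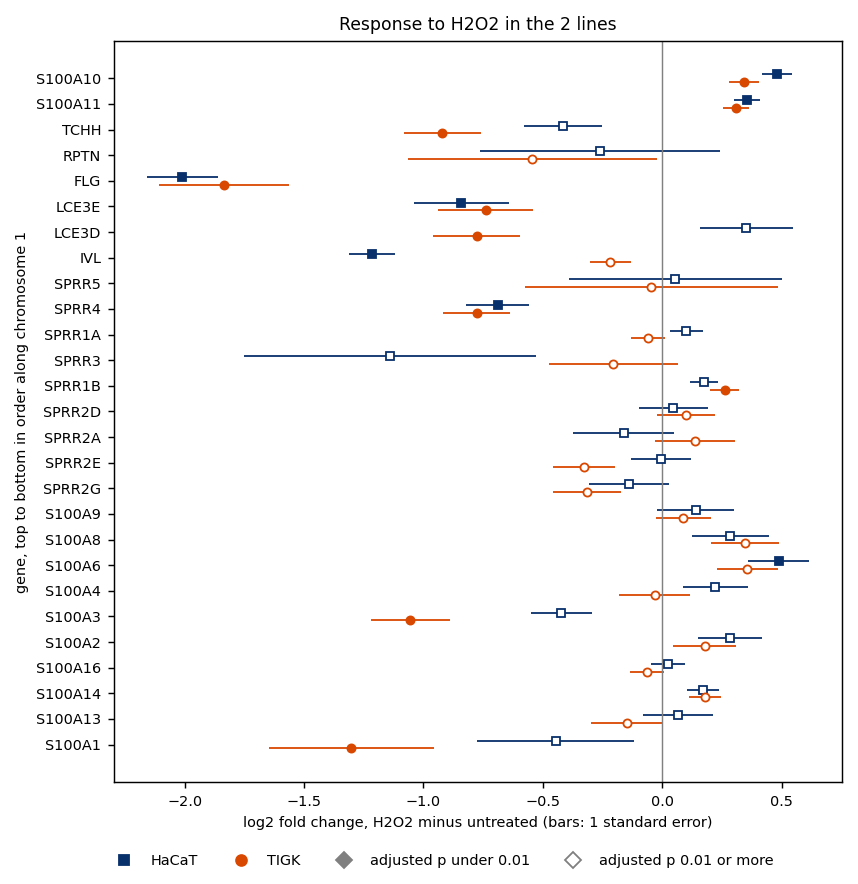
Log2 fold change of H2O2 against untreated (horizontal axis, bars 1 standard error) for 27 tested genes in HaCaT (squares) and TIGK (circles); filled symbols passed the adjusted p limit of 0.01 and 6 genes with a group mean under 5 normalized counts are not drawn. FLG, LCE3E and SPRR4 lie left of zero in both lines, while IVL and LCE3D are set apart between the lines.

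Whether the lines differed in their responses was tested directly, as the log2 fold change in TIGK minus that in HaCaT. Among the 33 genes 1 differed upward and 1 downward, beside 2.32% and 2.98% of all tested genes, or 6.06% of the cluster and 5.3% of all tested genes in either direction. For IVL the difference was 1.00 ± 0.13 (edgeR adjusted p = 4.95e-05). While IVL fell to 43.1% in HaCaT, in TIGK it went from 3633, 3176 and 3546 to 2574, 3014 and 3303, with overlapping libraries and a log2 fold change of -0.22 ± 0.09 that did not pass the test (edgeR adjusted p = 0.0534). For LCE3D the difference was -1.13 ± 0.27 (edgeR adjusted p = 0.00928). LCE3D fell in TIGK, and in HaCaT it went from 190.3, 170.2 and 181.7 to 180.3, 209.9 and 302.2, overlapping and not called (log2 fold change 0.35 ± 0.19, edgeR adjusted p = 0.145). The LCE3D difference was lost in 14 of 21 alternatives, among them when any 1 library was left out other than replicate 1 of treated HaCaT or replicate 3 of untreated TIGK (edgeR adjusted p up to 0.0319). For FLG the difference was 0.18 ± 0.33 (edgeR adjusted p = 0.794), for SPRR4 -0.09 ± 0.19 (edgeR adjusted p = 0.833) and for S100A10 -0.14 ± 0.09 (edgeR adjusted p = 0.344), none past the limit, which does not show that the lines respond alike.

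**Figure D4:**
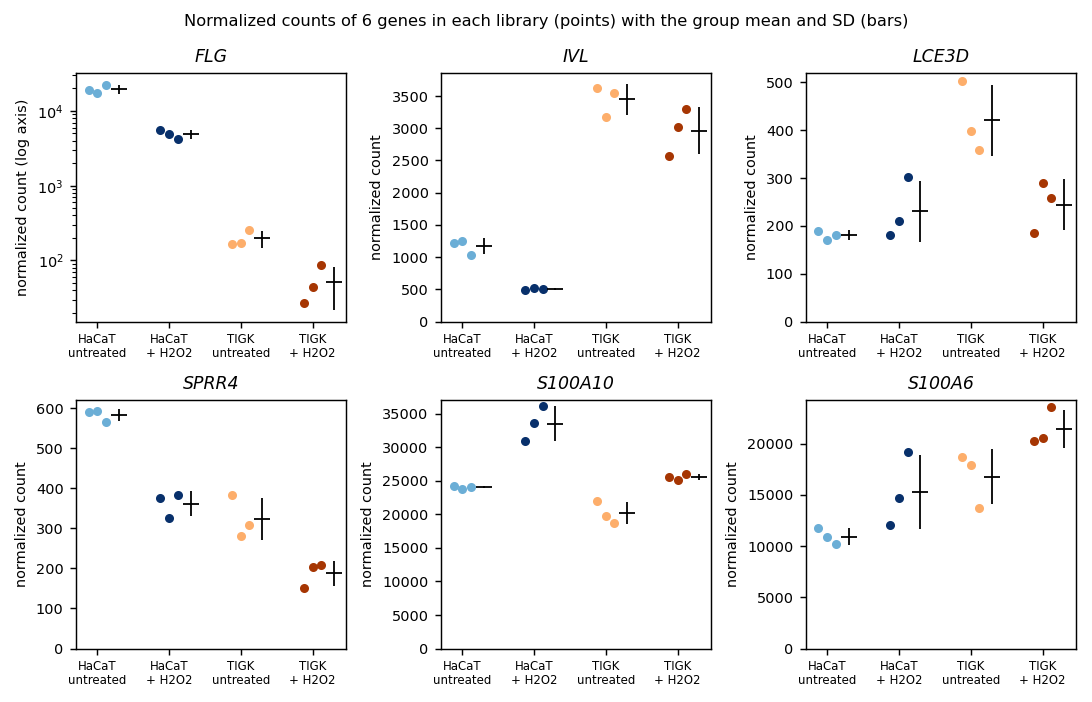
Normalized counts of FLG (log axis), IVL, LCE3D, SPRR4, S100A10 and S100A6 in each of the 12 libraries (points) with the group mean and SD (bars beside them). FLG and SPRR4 are lower with H2O2 in both lines, IVL is lower in all treated HaCaT libraries and overlaps between the TIGK groups, and the highest treated HaCaT point of LCE3D and S100A6 is replicate 3.

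The genes that were not tested stayed at 35 raw counts or fewer in any library. LCE5A, LCE3B, LCE2D, LCE4A and S100A7L2 had 0 counts throughout, which allows up to 3 counts in a library. FLG2, LCE3C, LCE1F, LCE1E and S100A5 passed 10 counts in at least 1 library. As group means, LCE1E was at 24.4 normalized counts in untreated HaCaT, 12.9 in treated HaCaT and at or under 1.04 in TIGK, LCE1F at 10.8, 6.22, 0 and 0, and LCE3C at 0.737, 0, 15.9 and 6.24, each with no test. FLG2, the filaggrin relative that lies beside FLG, was at 12.5 and 13.5 in HaCaT and 3.82 and 5.03 in TIGK. CRNN (cornulin), a protein of oral and oesophageal epithelium, was at 3.30 and 2.23 in HaCaT and at 0.348 and 0 in TIGK. S100A5 was at 16.3 in treated HaCaT and 2.46 in treated TIGK. RPTN, which was tested, stayed at or under 34.6 normalized counts in every library and was called in no comparison.

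Genes that act with the cluster were read from lists, whose counts stand beside 18.9% of all tested genes that rose and 15.2% that fell in HaCaT, and 10.2% and 12.9% in TIGK. Among 22 tested cornified envelope genes outside it, 7 fell and 0 rose in HaCaT with H2O2, and 2 fell and 0 rose in TIGK. In HaCaT the largest falls under the naming rule were in the desmosomal cadherins DSC1 (-0.93 ± 0.18) and DSG1 (-0.85 ± 0.10), the lipid transporter ABCA12 (-0.67 ± 0.11) and periplakin, PPL (-0.58 ± 0.08), as log2 fold changes. At rest 9 of the list were higher and 7 lower in HaCaT, where 29.1% and 30.8% of all tested genes were, with CASP14, the protease that processes filaggrin, 4.43 ± 0.19 higher on the log2 scale. CASP14 was at 1731, 1378 and 1221 normalized counts in HaCaT and at 80.3, 34.2 and 85.7 in TIGK. KRT1 was higher by 3.11 ± 0.13 and KRT10, its partner keratin, differed by -1.18 ± 0.10 on the same scale.

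AP-1 genes rose in both lines: 6 of 8 in HaCaT and 7 of 8 in TIGK, where 18.9% and 10.2% of all tested genes rose. The responses of 6 of the 8 differed between the lines, 3 upward and 3 downward in TIGK minus HaCaT. Of all tested genes, 2.32% differed upward and 2.98% downward. FOS rose by 6.26 ± 0.18 and 3.56 ± 0.15 on the log2 scale. Among 21 regulators of keratinocyte differentiation, 5 rose and 8 fell in HaCaT, and 9 rose and 4 fell in TIGK, where 18.9% and 15.2% of all tested genes rose and fell in HaCaT and 10.2% and 12.9% in TIGK. PRDM1 (BLIMP1) and ZNF750, regulators of terminal differentiation, went in opposite directions: ZNF750 fell by 0.83 in HaCaT and rose by 0.69 in TIGK on the log2 scale, PRDM1 fell by 1.41 and rose by 0.85, and the difference of responses was 1.52 ± 0.23 for ZNF750 and 2.26 ± 0.31 for PRDM1 (edgeR adjusted p = 0.000225 and 9.95e-05). Among 8 partners and receptors of S100 proteins, 5 rose in HaCaT and 3 in TIGK, and 0 fell, beside the same shares of all tested genes. ANXA2, the partner of S100A10, rose by 0.35 ± 0.07 on the log2 scale in HaCaT. In TIGK the untreated libraries averaged 87998 ± 6474 normalized counts of ANXA2 and the treated libraries 98615 ± 1381. ANXA6 averaged 12.3 normalized counts in untreated HaCaT and 740.5 in untreated TIGK. Of the other genes of the cluster, 3 of 7 were tested; 0 were called in HaCaT, and CRCT1, named outside the rule, fell in TIGK from 95.2 to 28.3. Of 4 S100 genes on other chromosomes only S100P was tested, and it was not called in either response.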

How the data were processed

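RNA from 12 samples of 2 human keratinocyte lines was enriched for mRNA and sequenced as paired reads. The authors aligned reads to GRCh38 and deposited raw counts per gene, and the submitters' processing notes name HISAT2 2.0.0 and 2.0.5 and featureCounts 1.5.0-p3. The annotation release, the use of strand and the handling of reads with several matches are not given in the sources used here. Other deposited tables hold the authors' own comparisons (fold changes, p-values) and were not used.

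Counts were analysed in R 4.3.3. The 16618 genes that averaged 10 or more raw counts entered one edgeR 4.0.16 quasi-likelihood fit of 4 groups with TMM factors, and p-values were adjusted over all of them by the Benjamini-Hochberg method. The limit was an adjusted p of 0.01. Standard errors are the log2 fold change divided by the square root of F. Alternatives were DESeq2 1.42.0, other scalings, filters and limits, a replicate block, the compared groups alone and leaving out each library. In a further alternative, counts were summed over close copies, namely the SPRR1 genes, the SPRR2 genes, and S100A7 with S100A7A. The script was tested on simulated data. RPKM used the deposited gene lengths.

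The genes and lists were chosen with earlier results of these data known. Full values were given for up to 6 genes a direction and comparison with the largest change among those past the limit, where the higher group averaged 100 normalized counts or more and libraries did not overlap, and for the 4 highest levels per length in each group, with up to 4 genes from each list under the same conditions. All 59 RefSeq promoter windows of the cluster matched the genome at their coordinates. Floors of 3 counts cover counting error only, while SDs and standard errors include the spread between libraries. Groups came from sample titles, and 5 comparisons were made.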

Additional observations from a re-analysis of the deposited data

Results flagged for a closer look

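The responses of IVL and LCE3D to H2O2 differed between the lines by the test of the difference itself. For IVL the log2 fold change in TIGK exceeded that in HaCaT by 0.9957 ± 0.13 (edgeR adjusted p = 4.95e-05), as IVL fell in HaCaT and was not called in TIGK. For LCE3D the same difference was -1.13 ± 0.27 (edgeR adjusted p = 0.00928), as LCE3D fell in TIGK and was not called in HaCaT, where replicate 3 of the treated group was the highest at 302.2 normalized counts against 180.3 and 209.9. Over 21 alternatives the IVL difference ranged from 0.95 to 1.08 and lost its call only under a limit of 1 on the absolute log2 fold change, while the LCE3D difference ranged from -1.23 to -0.88 and lost its call in 14.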

How the results depend on the processing

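Across all alternatives no called gene of the cluster changed direction, and 3414 of 3652 values for single genes kept direction and side of the limit, with 110 calls lost and 31 gained. The number of genes called higher moved from 3 to 5 in HaCaT and from 3 to 7 in TIGK with no filter on low counts, and to 5 in both with a limit of 0.05. Requiring an absolute log2 fold change of at least 1 left 0 higher in HaCaT, 0 higher and 3 lower in TIGK, 7 higher in HaCaT than TIGK both untreated and after H2O2, and 0 for the upward difference of responses. The downward difference of responses (LCE3D) went from 1 to 0 with median-ratio size factors, with scaling without mitochondrial genes, with the filterByExpr filter and with the replicate block; the cause was not tested. Replicate numbers did not pair the libraries (correlations of same-numbered deviations from -0.0319 to 0.0257); with the replicate number as a block, HaCaT counts were 2 higher and 6 lower, TIGK counts 3 and 5, untreated lines 12 and 14, treated lines 11 and 12, and the difference of responses 1 and 0. Leaving out each library in turn gave 2 to 3 higher and 4 to 7 lower in HaCaT, 2 to 4 and 4 to 7 in TIGK, 11 to 13 and 13 to 14 between untreated lines, 11 to 14 and 10 to 13 between treated lines, and 1 and 0 to 1 for the difference of responses, where the 0 came when any of 10 of the 12 libraries was left out. The 4 lower genes in TIGK were reached without replicate 1 of untreated TIGK or without replicate 3 of treated TIGK. Other scalings moved the median of all genes by less than 0.1 on the log2 scale (at most -0.0516, between treated lines without mitochondrial genes). Levels as TPM in place of RPKM changed the sign of 0 called differences and left the 4 highest genes of each group in the same order. Leaving out S100APBP could not be applied, since the rule took in no such gene. A mean raw count under 10 in at least 1 group limits the precision for LOR, S100A7, S100A12, SPRR3, SPRR5, HRNR, LCE1C and TCHHL1.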
